A study of Mus musculus with 5 samples.

Results

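Epithelial host defence oxidases and chemokines were taken as 8 named genes, matched by symbol among the 27998 genes of the deposited gene list: Duox2, Duoxa2, Nos2, Ccl20, Cxcl2, Cxcl1, Lcn2 and Saa1. All 8 were found, each on a single row. The members were chosen by their measured UMI counts across clusters of these same cells, where several lead an enterocyte state, so their levels across cell classes and clusters are given as a description, with no test. The samples were 5 droplet single-cell RNA libraries of ileal epithelial cells, the distal part of the small intestine, taken from C57BL/6 mice that were 8 to 12 weeks old. Sham surgery, the control operation, gave 3 libraries (sham 1, sham 2 and sham 3), and small bowel resection, the removal of a length of small intestine, gave 2 (resection 1 and resection 2). The labels give no transgene, drug or sex, no time after surgery, and no statement that each library came from a separate animal, so p-values measure the spread between these libraries only.

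The gut epithelium defends its surface with reactive molecules, with signals that call in leukocytes, and with secreted proteins that bind bacteria or their nutrients. Duox2 is a membrane NADPH oxidase that releases hydrogen peroxide toward the lumen, and Duoxa2 is the maturation factor it needs to leave the endoplasmic reticulum. Nos2 is the inducible nitric oxide synthase. Ccl20 is the ligand of Ccr6 and attracts B cells, T cells and dendritic cells, while Cxcl1 and Cxcl2 attract neutrophils through Cxcr2. Lcn2 (lipocalin 2) withholds siderophore iron from bacteria, and Saa1 (serum amyloid A1) is an acute-phase protein that ileal enterocytes also make. Many of these genes are known targets of NF-kB, a family of transcription factors switched on by microbial products and inflammatory cytokines.

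The sequences just upstream of the genes that differed most between libraries are shown here, because the chemokine genes carry a short motif in common and because Duox2 and Duoxa2 share an upstream region. Promoters of 7 of the 8 genes were matched in the RefSeq table of build GRCm38.p6, and Nos2 was not. In the gene records Duox2 ends at position 122298740 of chromosome 2 and Duoxa2 starts at 122298900, on opposite strands with 159 bases between them. The window of Duoxa2, chr2:122298750-122298899 on the plus strand, covers nearly all of that gap. The other windows, also the 150 bases before the annotated start on the plus strand, are chr1:83116616-83116765 for Ccl20, chr5:90891095-90891244 for Cxcl1 and chr5:90903749-90903898 for Cxcl2. Capitals mark matches on either strand to GGGAANNNCC, an NF-kB type motif. Its overlapping matches run together in Cxcl1 and Cxcl2.
Duoxa2: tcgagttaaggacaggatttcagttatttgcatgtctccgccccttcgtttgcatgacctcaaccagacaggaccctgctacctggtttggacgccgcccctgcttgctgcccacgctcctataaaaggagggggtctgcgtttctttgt
Ccl20: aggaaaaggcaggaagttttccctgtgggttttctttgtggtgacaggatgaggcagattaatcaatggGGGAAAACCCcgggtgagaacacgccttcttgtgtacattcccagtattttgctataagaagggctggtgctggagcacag
Cxcl1: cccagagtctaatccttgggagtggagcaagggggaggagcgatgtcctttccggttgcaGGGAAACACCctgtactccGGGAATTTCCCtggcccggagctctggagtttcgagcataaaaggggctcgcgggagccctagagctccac
Cxcl2: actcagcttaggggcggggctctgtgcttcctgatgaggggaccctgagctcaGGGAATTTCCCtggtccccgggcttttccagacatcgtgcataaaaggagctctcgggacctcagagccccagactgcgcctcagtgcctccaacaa

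The 3 chemokine windows held the motif, starting 81 bases before the start in Ccl20, 90 in Cxcl1 and 97 in Cxcl2. The windows of Duoxa2 and Lcn2 did not hold these letters. The table places the starts of Duox2 and Saa1 inside their gene records, so the windows read for them are not the sequence upstream of those records and are not described. Among all 32817 promoter windows of this length in the table, 3.07% held GGGAANNNCC on either strand. The exact word GGGAATTTCC, present in Cxcl1 and Cxcl2, was in 0.0609% of them. The motif was chosen with these sequences in view, and a match is a description of the letters only.

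The files held 19404 cells with 11749028 to 41281731 UMIs per library, and 18235 cells remained after filters and removal of probable doublets. A UMI (unique molecular identifier) stands for 1 captured RNA molecule, and levels are given as CPM, the count divided by all UMIs and multiplied by 1000000, summed over the cells of a class in a library. Of 22 clusters 12 were enterocyte-like by their markers, with 698 to 4547 such cells per library. Libraries shared 6 to 47 cell barcodes per pair, at most 1.5% of the smaller library. By cluster composition sham 1 and resection 1 (set A) lay together and apart from sham 2, sham 3 and resection 2 (set B): overlap was 33.8% to 54.1% within a set and 6.54% to 8.74% across. Enterocyte-like cells lay mainly in cluster 13 in sham 1, cluster 3 in sham 2, cluster 6 in sham 3, clusters 4 and 8 in resection 1 and cluster 1 in resection 2. With scaling of genes inside each library ahead of clustering, overlap was 57.3% to 84.7% within these sets and 57.2% to 79.6% across. Such scaling removes differences in mean between libraries, so it cannot show whether the sets differ. There resection 1 overlapped each other library by 57.2% to 60.35%, and the remaining libraries overlapped one another by 74.8% to 84.7%. Sham 3 stood apart in the members, so differences between the surgery groups are given with and without it.

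In enterocyte-like cells sham 3 had the highest level of 7 of the 8 members, Saa1 being the exception, while 20.6% of the 10433 genes tested were highest in sham 3. Sham 3 exceeded every other library at least 5 times in 7 of those genes (0.0671%), and 3 of the 7 were members: Ccl20, Duoxa2 and Cxcl2. That multiple was chosen after the values were seen, and the members were chosen from a state whose cells came mostly from sham 3, so these counts are a description. Its 1682 cells were 14.4% of all enterocyte-like cells, and they held 85.5% of the Ccl20 UMIs, 71.3% of the Duoxa2 UMIs, 73.6% of the Cxcl2 UMIs and 25.8% of the Saa1 UMIs.

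**Figure D1:**
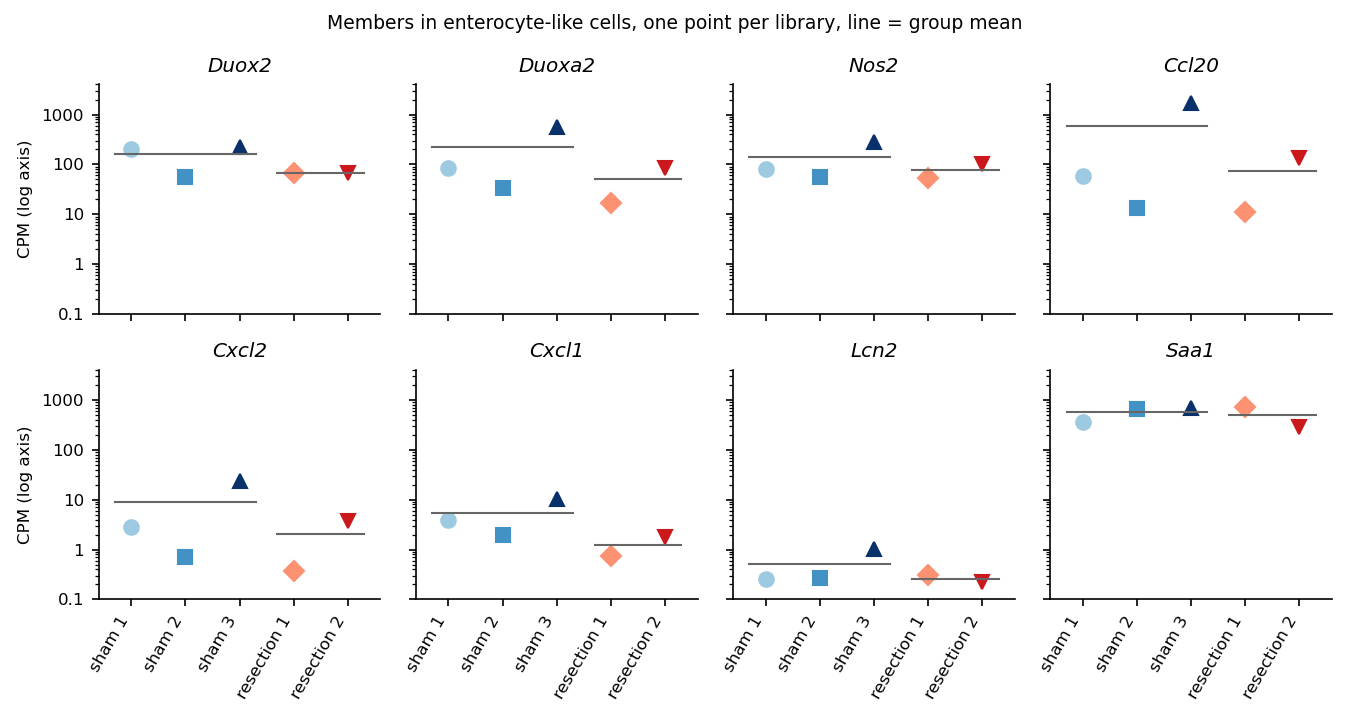
Level of each of the 8 genes in enterocyte-like cells, in CPM on a log axis shared by all panels, with 1 point per library (blue for sham, red for resection) and a line at the group mean. Sham 3 is the top point for 7 genes and reaches 1685 CPM for Ccl20, whereas the Saa1 points of the groups interleave.

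Among the oxidases, Duox2 stood at 206 CPM in sham 1, 55.4 in sham 2, 221 in sham 3, 68.2 in resection 1 and 68.0 in resection 2. Both resection libraries were near one another and lay between the low sham 2 and the other two sham libraries, so the groups overlapped. The log2 fold change, resection over sham, was -1.22 ± 0.53 (SE; edgeR quasi-likelihood test, adjusted p = 0.972, unadjusted p = 0.0535). Without sham 3 it was -0.80 and the direction held.

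Duoxa2 stood at 84.2 CPM in sham 1, 33.2 in sham 2, 561 in sham 3, 17.1 in resection 1 and 84.6 in resection 2. Resection 1 was the lowest, resection 2 was close to sham 1, and sham 3 was 6.63 times the next library. The fold change of Duoxa2 was -2.16 ± 1.26 on the log2 scale (edgeR adjusted p = 0.998). Without sham 3 it was -0.03.

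The oxidase and its maturation factor did not keep a fixed proportion. There were 0.409 Duoxa2 UMIs per Duox2 UMI in sham 1, 0.599 in sham 2, 2.54 in sham 3, 0.250 in resection 1 and 1.24 in resection 2 (exact 95% intervals 0.359 to 0.466, 0.525 to 0.681, 2.43 to 2.65, 0.215 to 0.290 and 1.16 to 1.33, for counting error only). No 2 of these intervals overlapped. Only the change of this ratio between libraries is meaningful, since the capture of the 2 transcripts can differ. The highest ratios were those of sham 3 and resection 2 and the lowest that of resection 1, so the groups overlapped.

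Nos2 stood at 79.1 CPM in sham 1, 55.5 in sham 2, 278 in sham 3, 53.5 in resection 1 and 101 in resection 2. Resection 2 exceeded both sham 1 and sham 2, and only sham 3 was higher. The fold change was -0.86 ± 0.74 on the log2 scale (edgeR adjusted p = 0.998), and without sham 3 it was 0.29.

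Of the chemokines, Ccl20 had the widest range of levels. It stood at 59.7 CPM in sham 1, 13.3 in sham 2, 1685 in sham 3, 11.1 in resection 1 and 136 in resection 2. Sham 3 was 12.4 times the next library, resection 2, which in turn exceeded both other sham libraries. The fold change of -3.01 ± 2.00 on the log2 scale did not pass the test (edgeR adjusted p = 0.998, unadjusted p = 0.174) and became 1.25 ± 1.08 without sham 3.

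Cxcl2 was scarce, at 2.81 CPM in sham 1, 0.706 in sham 2, 23.8 in sham 3, 0.379 in resection 1 and 3.69 in resection 2. Its order of libraries was that of Ccl20, with sham 3 far above and resection 2 next. The resection 1 level rested on 5 UMIs and that of sham 2 on 8. The fold change was -2.15 ± 1.39 on the log2 scale (edgeR adjusted p = 0.998), against 0.62 without sham 3.

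Cxcl1 stood at 3.83 CPM in sham 1, 1.94 in sham 2, 10.2 in sham 3, 0.758 in resection 1 and 1.76 in resection 2. Here both resection libraries lay below every sham library, the only member of which this was true, although 1.76 and 1.94 are close and rested on 40 and 22 UMIs. Among all genes tested, 8.13% had both resection libraries below every sham library and 8.26% had both above, which no member showed. The fold change of -2.08 ± 0.77 on the log2 scale had an unadjusted p of 0.0289 and an edgeR adjusted p of 0.887, and it was -0.99 ± 0.59 without sham 3.

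Of the secreted proteins, Lcn2 was almost absent. It gave 26 UMIs in 11696 enterocyte-like cells, between 0.220 CPM (resection 2) and 1.03 CPM (sham 3), and did not pass the filter on low counts. Lcn2 levels stayed at or below 6.85 CPM in every class and library, the highest value being in cycling-like cells of resection 1.

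Saa1 was detected in every library, at 368 CPM in sham 1, 673 in sham 2, 693 in sham 3, 720 in resection 1 and 291 in resection 2. Its highest and the lowest library were both resection libraries. The fold change was -0.30 ± 0.50 on the log2 scale (edgeR adjusted p = 0.998), and -0.11 without sham 3. Saa1 has a close paralog, Saa2, and reads of the pair may have been divided by the counting.

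For Saa1 the difference had opposite signs in the 2 library sets. In set A resection 1 was above sham 1 by 0.97 on the log2(CPM + 1) scale, and in set B resection 2 differed by -1.21 from sham 2 and by -1.25 from sham 3. The interaction of surgery with the set was -2.34 ± 0.44 on the log2 scale (edgeR adjusted p = 0.655). This added test was chosen after the data were seen, and 3 of its 4 arms are single libraries, so the spread among libraries comes from sham 2 against sham 3 alone. For Ccl20 the contrast within set B depended on the sham library: resection 2 differed by 3.25 from sham 2 and by -3.63 from sham 3. Duoxa2 (1.32 and -2.71), Nos2 (0.85 and -1.45), Duox2 (0.29 and -1.68) and Cxcl2 (1.46 and -2.40) likewise lay above sham 2 and below sham 3, and in set A resection 1 lay below sham 1 for Duox2, Duoxa2, Nos2, Ccl20, Cxcl2 and Cxcl1.

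Over the whole fit edgeR called 0 of 10433 genes in enterocyte-like cells at an adjusted p under 0.05, a background of 0%, and none of the 7 members tested. At an unadjusted p under 0.05 there were 534 genes, 1 of them a member (Cxcl1). DESeq2 called 73 genes (0.7%) and no member, and gave no adjusted p for Ccl20. Members were called under only 1 alternative in these cells: without the filter on low counts edgeR called Ccl20, Duoxa2, Cxcl1 and Cxcl2, all lower after resection, at adjusted p from 0.00165 to 0.0044. The same setting gave Ccl20 a standard error of 0.64 in place of 2.00 and called 217 of 15970 genes.

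**Figure D2:**
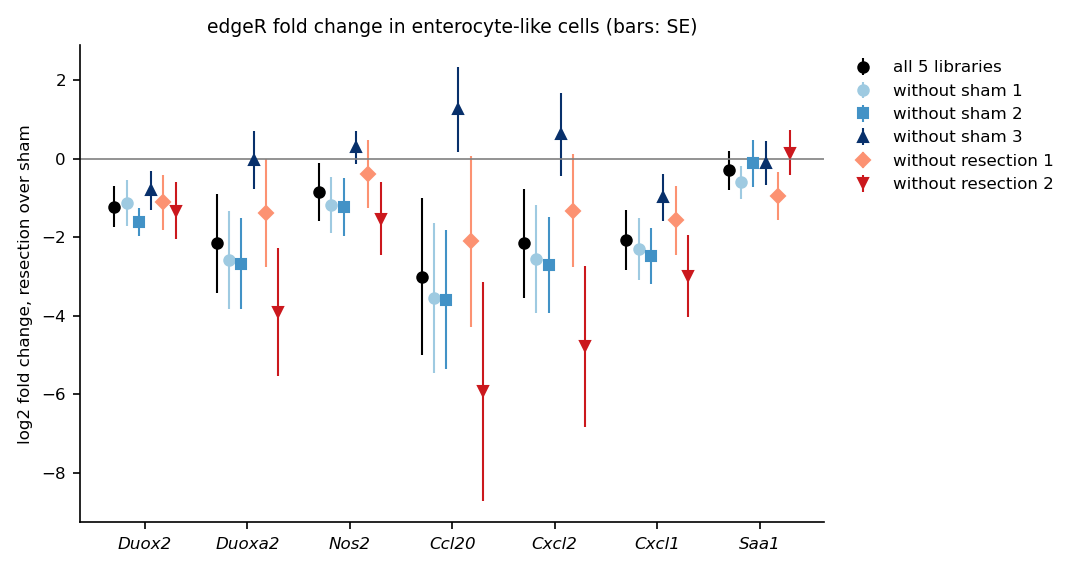
Log2 fold change, resection over sham, of 7 genes in enterocyte-like cells by edgeR, with bars of 1 SE, for all 5 libraries (black) and with each library left out in turn. Leaving out sham 3 moved Ccl20 from -3.01 to 1.25, whereas Duox2 and Cxcl1 lay below 0 in all 6 fits.

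In the other classes the edgeR fit with the low-count filter and no block called no member. Without the filter it called Ccl20 in cycling-like, goblet-like and Paneth-like cells. That setting called 13 of 14382, 27 of 12889 and 14 of 13484 genes in these classes. With the filter the background of called genes was 0.0197% in goblet-like cells. It was 0% in all epithelial, immature enterocyte-like, cycling-like and Paneth-like cells. Stem-like cells were not tested because sham 1 had none in the clustering used for these results.

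Shares of cells with a gene detected put sham 3 highest for Ccl20 and Duoxa2, as the levels did. After each cell was thinned to 2000 UMIs, which every cell had, Ccl20 was detected in 7.45% of enterocyte-like cells in sham 1, 1.20% in sham 2, 54.9% in sham 3, 1.06% in resection 1 and 11.2% in resection 2. Without thinning the shares were 11.6%, 1.95%, 70.0%, 2.03% and 17.3%. Duoxa2 was detected in 14.9%, 5.52%, 55.5%, 2.54% and 11.6% of cells in the same order of libraries, again highest by far in sham 3.

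Duox2 was detected in 31.1% of thinned cells in sham 1, 10.2% in sham 2, 32.6% in sham 3, 10.9% in resection 1 and 10.3% in resection 2, so that sham 1 and sham 3 formed a high pair. Nos2 was detected in 12.8%, 10.5%, 37.5%, 9.32% and 17.2% of cells in that order. Saa1 was detected in 34.2%, 45.5%, 44.4%, 38.8% and 27.1%, so that sham 2 was highest here and resection 1 was highest in CPM. Cxcl1, Cxcl2 and Lcn2 were each detected in at most 3.03% of cells in any library.

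Mean shares were lower after resection for all 8 members. Shares were computed for the members only, so this count has no background over all genes and is a description. The differences were -15.1 points for Ccl20 (exact two-sided permutation test, p = 0.8), -18.2 for Duoxa2 (p = 0.6), -14.0 for Duox2 (p = 0.4), -6.94 for Nos2 (p = 0.8), -8.40 for Saa1 (p = 0.3), -0.973 for Cxcl2 (p = 0.6), -0.913 for Cxcl1 (p = 0.2) and -0.0609 for Lcn2 (p = 0.9). With 2 libraries against 3 this exact test cannot go below 0.1. Without sham 3 the sign changed for Ccl20 (1.78 points), Nos2 (1.68 points) and Lcn2 (0.0114 points).

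Outside sham 3 a minority of cells held Ccl20. Without thinning it was detected in 11.6% of cells in sham 1 and 17.3% in resection 2. The top 10% of enterocyte-like cells, ranked by Ccl20 itself, held 89.3% of its UMIs in resection 2 and 95.3% in sham 1. Such high shares follow in part from this sparse detection. In sham 3, with Ccl20 in most cells, the top 10% held 52.4%. Cells with Ccl20 carried a mean of 2.89 UMIs of it in sham 1, 3.21 in sham 2, 3.06 in resection 1 and 3.93 in resection 2. Their mean was 18.1 in sham 3, where a single cell reached 212. Cells with Nos2 carried 1.33 to 1.61 UMIs outside sham 3 and 3.24 in it, and those with Duox2 carried 1.27 to 1.95 and 2.48.

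**Figure D3:**
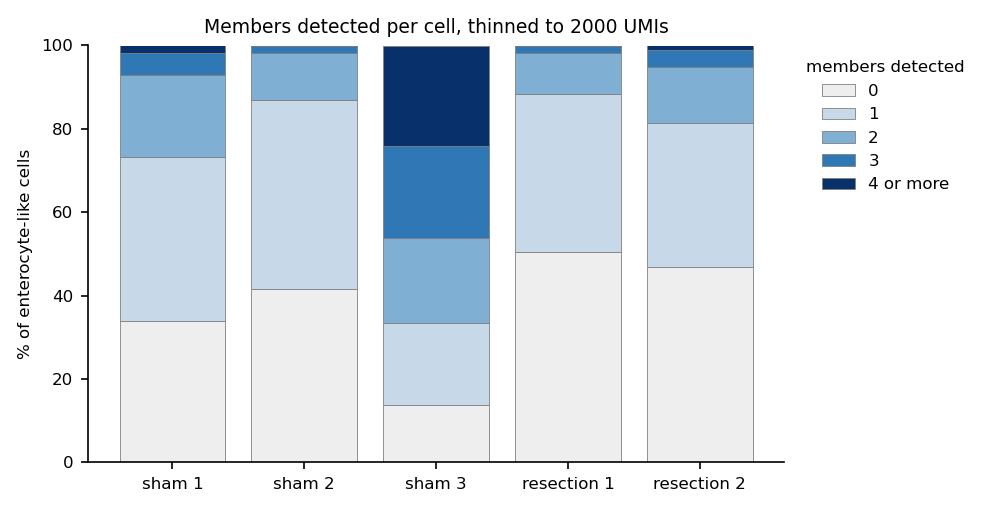
Share of enterocyte-like cells in which 0, 1, 2, 3 or at least 4 of the 8 genes were detected, by library, after thinning to 2000 UMIs. At least 4 were detected in 24.1% of cells of sham 3 and in at most 1.86% of cells of any other library.

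At least 2 members were detected in 26.6% of cells in sham 1 (exact binomial 95% interval 23.4% to 30.1%), 13% in sham 2 (11.7% to 14.4%), 66.5% in sham 3 (64.2% to 68.7%), 11.6% in resection 1 (10.3% to 13%) and 18.6% in resection 2 (17.5% to 19.7%). These intervals cover counting error only. Cells with none made up 33.8%, 41.7%, 13.9%, 50.6% and 46.8% in the same order.

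Within libraries, some members tended to sit in the same cells, which is a description over 11696 cells that share their library and its free RNA. The odds ratio of detection together, pooled over libraries by the Mantel-Haenszel method, was 3.91 for Nos2 and Ccl20 and 3.36 for Duoxa2 and Ccl20. It was 2.35 for Duox2 and Duoxa2, with 573 cells holding both where 411 would be met if they were independent within each library. These 3 pairs lay above 1 in all 5 libraries, sham 3 included, where the ratios were 3.78, 3.27 and 2.15. Ccl20 and Cxcl2 gave 5.64 from 58 cells. Duox2 and Nos2, both oxidant-producing enzymes, gave 1.25, with 1.02 in sham 1 and 1.06 in sham 2. Saa1 and Ccl20 gave 1.75, with 3.01 in sham 3 but 0.97 in sham 2 and 1.10 in resection 2.

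**Figure D4:**
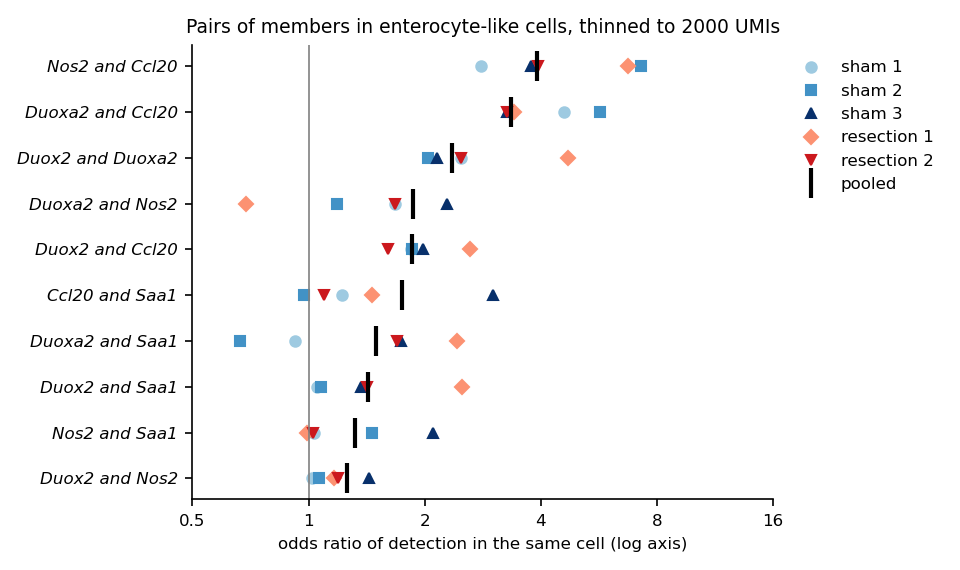
Odds ratio, on a log axis, of detecting 2 genes in the same enterocyte-like cell for the 10 pairs of Duox2, Duoxa2, Nos2, Ccl20 and Saa1, with 1 point per library and a black bar for the pooled value. Pairs of Ccl20 with Nos2 and Duoxa2 lie above 1 in every library, and the 4 pairs with Saa1 have at least 1 library close to or below 1.

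Genes outside the 8, 7476 in number, were ranked by the odds ratio of their detection together with at least 2 members. Leaving out Spink1, mt-Co1 and Reg3g, which were each detected in 99.9% of these cells, the first were 2010107G12Rik (pooled odds ratio 2.87), Tnf (2.66), Hk2 (2.65), Adm (2.46), Slfn2 (2.39), Ifit1bl1 (2.27) and Cxcl10 (2.25). Tnf and Cxcl10 are an inflammatory cytokine and an interferon-induced chemokine, Hk2 is a hexokinase, and Adm is the peptide hormone adrenomedullin. The odds ratio was above 1 in all 5 libraries for each of these except Tnf, for which it was above 1 in 4.

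Across cell classes the members followed different patterns. Nos2 was highest in enterocyte-like cells in every library, with a median of 79.1 CPM over libraries (range 53.5 to 278). Its medians were 11.7 (6.52 to 14.7) in immature enterocyte-like, 10.8 (6.45 to 16.5) in cycling-like and 16.3 (13.2 to 18.9, 4 libraries) in stem-like cells, 3 ranges that overlap one another and none of which reaches the enterocyte-like range. Saa1 was likewise highest in enterocyte-like cells among these 4 classes, with 673 CPM (291 to 720) in enterocyte-like cells against 66.0 (38.7 to 78.2) in immature enterocyte-like, 44.3 (40.3 to 72.3) in cycling-like and 48.2 (25.6 to 81.7) in stem-like cells.

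Duox2 counts were not confined to enterocyte-like cells. Its median was 68.2 CPM (55.4 to 221) in enterocyte-like, 110 (80.5 to 173) in immature enterocyte-like, 83.7 (73.0 to 173) in cycling-like and 60.2 (48.4 to 64.0) in stem-like cells, ranges that overlap apart from the stem-like with the immature and cycling-like. Sham 3 had the highest Duox2 level in enterocyte-like cells but sham 1 had it in immature enterocyte-like and cycling-like cells. Duoxa2 had medians of 84.2 CPM (17.1 to 561), 63.5 (51.9 to 152), 66.5 (41.1 to 110) and 46.5 (37.7 to 69.3) in those 4 classes, all overlapping. In resection 1 Duoxa2 was lower in enterocyte-like cells (17.1 CPM) than in immature enterocyte-like (62.2 CPM) and cycling-like cells (75.4 CPM), whereas in sham 3 it was higher (561 against 152 and 110 CPM).

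Ccl20 was higher in sham 3 than in any other library in every class tested. It stood there at 65.1 CPM in immature enterocyte-like, 74.6 in cycling-like, 68.1 in stem-like, 760 in goblet-like and 81.0 in Paneth-like cells. Among the genes tested, the share highest in sham 3 was 18.9% in immature enterocyte-like, 15.9% in cycling-like, 22.9% among goblet-like and 14.1% among Paneth-like cells. Elsewhere Ccl20 lay between 1.24 and 24.2 CPM in immature, cycling-like, stem-like and Paneth-like cells. The ranges of Ccl20 over libraries overlapped between all these classes, because of the breadth of the libraries.

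**Figure D5:**
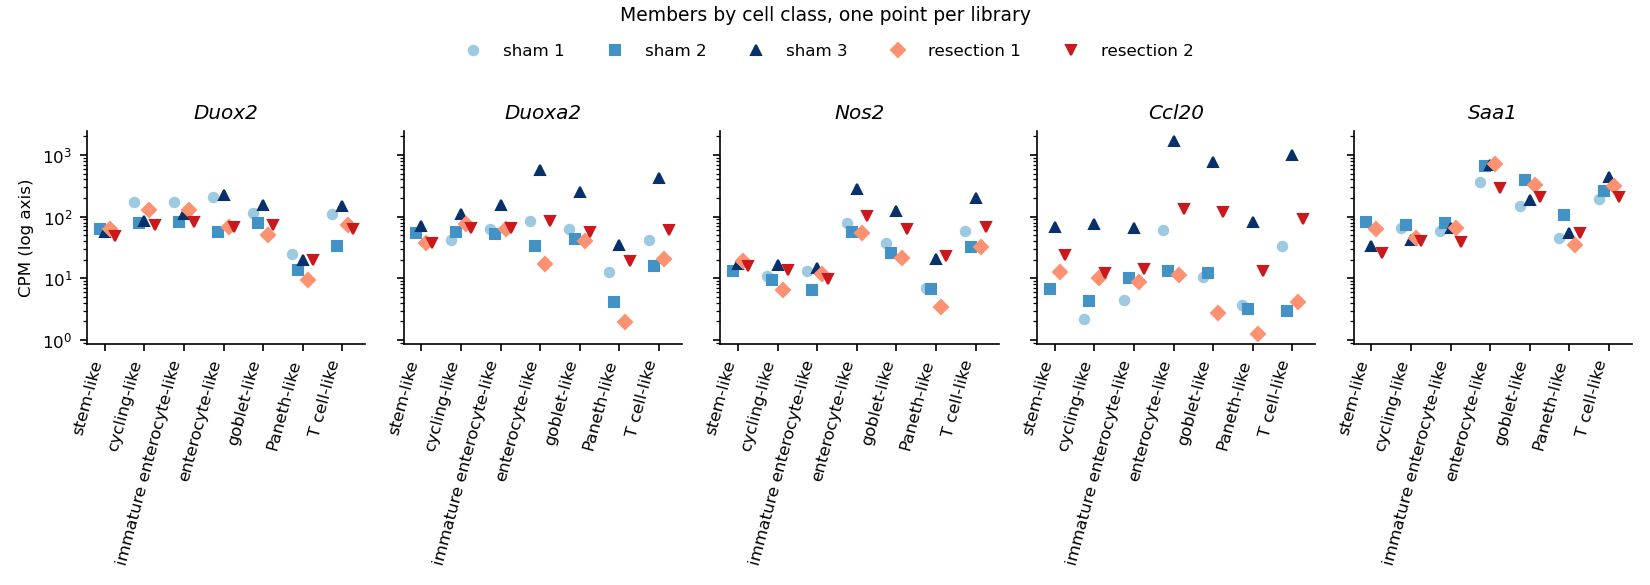
Level of 5 genes by cell class, in CPM on a log axis, with 1 point per library having at least 20 cells of the class. Nos2 and Saa1 are high in enterocyte-like cells of every library, Duox2 spans 48.4 to 221 CPM from stem-like to enterocyte-like cells, and sham 3 is the top Ccl20 point in all 7 classes.

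Droplet data hold free RNA, so levels in other classes were set beside those of the enterocyte marker list. The summed level of the enterocyte marker list in T cell-like droplets was 53.5% to 73.7% of that in enterocyte-like cells of the same library, in goblet-like cells 50.6% to 63.0%, and in Paneth-like cells 4.70% to 16.7%. In T cell-like droplets Nos2 was at 57.7% to 73.4% of its enterocyte-like level, Ccl20 at 21.8% to 66.4% and Saa1 at 38.5% to 72.5%. In goblet-like cells Nos2 was at 40.3% to 63.6%, Saa1 at 26.7% to 71.6% and Ccl20 at 17.7% to 92%, the range of Ccl20 being the widest. Cxcl2 in goblet-like cells was at 197% in sham 3 and 132% in resection 2, from 22 and 5 UMIs. In Paneth-like cells Nos2 was at 6.51% to 22.5% and Ccl20 at 4.81% to 23.5%. After thinning, Ccl20 was detected in 34.1% of T cell-like droplets of sham 3 against 54.9% of its enterocyte-like cells, at median depths of 6190 and 5914 UMIs. In sham 3 Ccl20 was at 3.86% of its enterocyte-like level in immature enterocyte-like, 4.43% among cycling-like and 4.04% among stem-like cells, below the 22.7%, 9.98% and 8.41% of the marker list there. Library by library, levels of Nos2, Ccl20 and Saa1 in goblet-like, T cell-like and Paneth-like droplets lay on either side of the marker list. In Paneth-like cells Nos2 and Saa1 lay above it in every library. Ccl20 there was at 23.5% in sham 2 against 11.1% for the list, and at 9.83% in resection 2 against 16.7%. In T cell-like droplets Ccl20 lay below it in every library. The levels of these genes are therefore not read as expression by those cells, nor as free RNA alone. The same holds for Ccl20 in immature enterocyte-like, cycling-like and stem-like cells. Outside sham 3 it lay above the list there in sham 2 and resection 1, and on either side in resection 2. In sham 1, which held no stem-like cells in this clustering, it lay below the list. In resection 1 Ccl20 was at 78.5%, 90.4% and 113% of its enterocyte-like level, from 47, 25 and 2 UMIs. The list stood there at 27.4%, 9.35% and 11.5%. Duox2 in immature enterocyte-like and cycling-like cells reached medians of 118% and 107% of its enterocyte-like level, and Duoxa2 of 76.7% and 78.7%. The marker list stood there at 22.5% to 29.5% and 9.35% to 14.3%. In sham 3, however, Duoxa2 was at 27.1% and 19.7%, against 22.7% and 9.98% for the marker list. T cell-like droplets held Duox2 at 54.5% to 107% and Duoxa2 at 48.2% to 119%. The part of free RNA in these levels was not tested.

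Within the enterocyte-like class, cluster 6 was led by Ccl20, Adm, Duoxa2 and Nos2 although the members and their pathway lists had been left out of the genes used for clustering. It held 1051 cells, 993 of them from sham 3, so it may describe that library rather than a type of cell. The 44 cells of resection 2 in cluster 6 had 1549 CPM of Ccl20 and the sham 3 cells 2334 CPM. When genes were scaled within each library, again with the members left out, a cluster of 2383 enterocyte-like cells drew on all 5 libraries. Its leading genes, in counts pooled over libraries, were Ccl20, Adm, Areg and Phlda1. It held 16.5% of the cells of sham 1, 15.3% of sham 2, 19.3% of sham 3, 6.96% of resection 1 and 11.9% of resection 2. Even in it Ccl20 stood at 123 CPM in sham 1, 7.36 in sham 2, 1874 in sham 3, 40.5 in resection 1 and 227 in resection 2. In sham 2 this was below the 13.3 CPM of all its enterocyte-like cells, so Ccl20 did not lead the cluster there. The other libraries lay above their own enterocyte-like levels.

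Genes with the most similar pattern were sought by Pearson's r of log2(CPM + 10) over 34 library-by-class units, which share libraries and are not independent. Duox2 was most like Slc1a1 (r = 0.917), Hspa5 (0.913) and Pmm2 (0.903). Duoxa2 was most like Ifit1bl1 (0.835), Bcl3 (0.806) and Phlda1 (0.792). Nos2 was most like Rtp4 (0.885), Cxcl16 (0.884) and Nfkb2 (0.881). Ccl20 was most like Adm (0.788), Ifit1bl1 (0.770) and Nfkb2 (0.767), and Cxcl2 was most like Adm (0.769), Nfkb2 (0.724) and Phlda1 (0.678). Saa1 was most like Slc13a1 (0.936), Slc10a2 (0.928) and Rhoc (0.927), the first 2 of which encode a sulfate transporter and the ileal bile acid transporter. Among the members themselves, Ccl20 had r of 0.877 with Cxcl2, 0.814 with Duoxa2 and 0.806 with Nos2 but 0.412 with Duox2 and 0.359 with Saa1, and Saa1 had 0.777 with Nos2.

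Other genes of these pathways were followed through lists made with earlier results of these data known, in enterocyte-like cells and against a median of -0.02 on the log2 scale over all genes tested. No gene of any list passed the edgeR test, with or without sham 3. Of all 10433 genes tested, 5488 lay below 0 and 2148 were highest in sham 3. Without sham 3, 5154 of 10298 genes lay below 0, with a median of -0.000433. Of 25 genes of NF-kB, STAT3 and IL-17 signalling, 24 were tested, 20 of them below 0 with a median of -0.17, and 9 were highest in sham 3. Without sham 3, 11 of the 24 lay below 0, with a median of 0.02. The lowest unadjusted p was that of Cebpb, a transcription factor of the acute-phase response: it stood at 49.0, 47.1, 60.6, 29.3 and 27.4 CPM in sham 1, sham 2, sham 3, resection 1 and resection 2, and both resection libraries were below the sham range. Its fold change was -0.91 ± 0.27 on the log2 scale with an edgeR adjusted p of 0.687, and -0.74 without sham 3. Next were Zc3h12a (-0.58, and 0.05 without sham 3) and Nfkbia (-0.47, and -0.18), which restrain inflammatory mRNAs and NF-kB.

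Of 18 cytokines 5 were tested. All 5 lay below 0, with a median of -0.86, and all 5 were highest in sham 3. Without sham 3 only 3 passed the filter on low counts, 2 of them below 0, with a median of -0.16. The others entered the fit only with sham 3, where they were highest, so the count of 5 follows in part from the filter. The lowest p-values belonged to Il18 (-0.53, and -0.28 without sham 3), Tnf (-1.44, and -0.16) and Csf1 (-1.20, not tested without it). Tnf stood at 11 CPM in sham 1, 1.15 in sham 2, 23.1 in sham 3, 0.986 in resection 1 and 7.2 in resection 2, so that, as for Ccl20, sham 3 was highest and sham 2 and resection 1 were low.

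Of 20 other chemokines 7 were tested, 6 below 0, with a median of -0.29, and 4 were highest in sham 3. Without it 5 of 7 lay below 0, with a median of -0.03. Ccl28 (-0.45, and -0.21 without sham 3), Cxcl10 (-0.80, and 0.05) and Ccl9 (-0.48, and -0.55) had the lowest p-values. Of 22 cytokine and pattern receptors 11 were tested, 8 below 0 with a median of -0.21, and 1 was highest in sham 3. Without it 7 of 10 lay below 0, with a median of -0.15. The receptor highest in sham 3 passed the filter on low counts only with that library, so the count of 8 follows in part from the filter. Nod1 (-1.34, and -1.74 without sham 3), Il17rc (-0.45, and -0.49) and Tlr3 (-0.38, and -0.55) had the lowest p-values there.

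Of 21 partners of the oxidases and of nitric oxide synthesis 8 were tested, 6 below 0 with a median of -0.38, and 5 were highest in sham 3. Without it 4 of 7 lay below 0, with a median of -0.12. Gch1, which makes the tetrahydrobiopterin that Nos2 needs, stood at 32.4 CPM in sham 1, 34.5 in sham 2, 59.0 in sham 3, 19.5 in resection 1 and 37.4 in resection 2 (log2 fold change -0.57, edgeR adjusted p = 0.998, and -0.19 without sham 3), and its groups overlapped. Noxo1, which organises another NADPH oxidase, had a log2 fold change of -0.54 (edgeR adjusted p = 0.998), and -0.13 without sham 3.

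Of 22 other acute-phase and antimicrobial genes 11 were tested, 10 below 0 with a median of -0.66, and 6 were highest in sham 3. Without it 10 of 11 lay below 0, with a median of -0.28. Saa2, the paralog of Saa1, stood at 5.11 CPM in sham 1, 4.5 in sham 2, 4.43 in sham 3, 3.34 in resection 1 and 1.05 in resection 2, with both resection libraries below the sham range (log2 fold change -1.19, edgeR adjusted p = 0.908; also -1.19 without sham 3). Saa3 (-1.80, and -0.46 without sham 3) and Lypd8 (-0.87, and -0.74), a secreted protein that binds flagellated bacteria, had the next lowest p-values.

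Markers of other cell types were low in enterocyte-like cells. The 10 T cell markers summed to 31.1 to 123 CPM and were lower in sham 3 (51.3 CPM) than in sham 2 (123 CPM). The 12 myeloid markers summed to 5.16 to 10.5 CPM, with 6.09 CPM in sham 3, and the neutrophil genes S100a8 and S100a9 were at 0 in the enterocyte-like cells of 4 of the 5 libraries, sham 3 among them. The highest single myeloid marker was Itgam, Tyrobp or Fcer1g, depending on the library. The 7 M cell markers summed to 21.5 to 40.3 CPM, with Gp2 at 0 in all 5 libraries. Most of that sum was Tnfrsf11a, detected in every library at 17.7 CPM (sham 3) to 37.3 CPM (sham 1). The 7 stromal markers summed to at most 1.79 CPM. The median mitochondrial share of UMIs per cell was 7.22% in sham 3 and 8.50% to 13.3% in the others, and its part in the high levels of sham 3 was not tested.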

How the data were processed

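Single-cell RNA was measured in 5 libraries, 3 sham and 2 resection, grouped by the treatment label. The authors deposited, for every cell, unnormalized UMI counts of each gene, from 10x Chromium 3' libraries of chemistry version 2 counted with Cell Ranger per the labels, whose statement of the Cell Ranger version is uncertain. The submitters' processing notes name builds mm10 and GRCm38; the annotation and the cell calling settings are not given in the sources used here. Counting of a near-identical paralog can divide reads, and free RNA in droplets adds counts of abundant genes to every cell.

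Cells with at least 500 genes and at most 20% mitochondrial UMIs were kept. Probable doublets were found against simulated ones (2 per cell), at a rate that grew with the number of cells, which removed 3.80% of the remaining cells. Counts were scaled to 10000 per cell and clustered on 2000 variable genes, 30 principal components and 20 neighbours with Leiden (leidenalg 0.10.2, resolution 1), with the members and pathway lists left out of the variable genes. Classes were named from marker lists. The members, lists and library sets were chosen with earlier results of these data known.

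Counts were summed per class and library and tested with edgeR 4.0.16 (R 4.3.3), by TMM, filterByExpr and the quasi-likelihood test over all genes, adjusting p-values by Benjamini-Hochberg (calls under 0.05), in epithelial classes with at least 20 cells in every library. T cell-like droplets were not tested. Floors of 3 counts and 95% intervals cover counting error only. Shares of cells were compared after thinning to 2000 UMIs by an exact permutation test over 10 arrangements. On simulated counts for enterocyte-like cells (10489 genes), 196 of 200 genes changed by 2 on the log2 scale were recovered, with 9 false calls. The simulation gave every gene the same dispersion and changed only genes above a floor on counts. Standard errors of the members tested in these cells ran from 0.50 (Saa1) to 2.00 (Ccl20). This recovery is therefore not the power of the test for the members.

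Named genes were the 8 members, per pathway list the 3 tested genes with the lowest unadjusted p, per member at 20 CPM or more in a unit the 3 most similar genes, and the 10 genes with the highest odds of detection beside at least 2 members, among genes in at least 1% of cells. A gene that this rule names among the oxidase partners, and 1 marker list, are not reported here. Alternatives were DESeq2 1.42.0, other size factors, no filter on low counts, the library set as a term, the replicate number as a block, clustering at resolution 0.5, with scaling within libraries or with members kept, no doublet removal, thinning to 1500 UMIs and leaving out each library. Unthinned shares, the interaction with the set and the multiple of 5 for sham 3 were added after the data were seen. Promoters came from RefSeq (GRCm38.p6).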

Additional observations from a re-analysis of the deposited data

How the results depend on the processing

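Of the alternatives to 29 results, 296 were labelled unchanged and 51 moved, 10 turned a direction and 4 passed a threshold the reported value did not. A fold change was labelled unchanged if it kept its sign and side of the threshold, whatever its size. Duoxa2, at -2.16 with all libraries and -0.03 without sham 3, is therefore among the unchanged. A count was unchanged if equal or within 1.5 times, and any other count was moved. A share difference was moved if it shifted by at least the standard deviation of the sham libraries. DESeq2 called 73 genes in enterocyte-like, 35 in all epithelial, 2 in immature enterocyte-like cells, 1 among cycling-like cells, then 7 among goblet-like and 6 among Paneth-like cells. With the library set as a term edgeR called 30, 1, 2, 1, 30 and 7 genes in the same order, and without the filter on low counts 217, 18, 19, 13, 27 and 14. That last setting called 4 members in enterocyte-like cells and 1 each in cycling-like, goblet-like and Paneth-like cells. In goblet-like cells 5 genes were called at resolution 0.5, 5 with scaling within libraries, 3 with members kept in the clustering and 9 with doublets kept; in Paneth-like cells the last 3 settings gave 4, 4 and 2. The cause was not tested.

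The replicate number is not stated to pair libraries. Deviations of same-numbered libraries in enterocyte-like cells had correlations of 0.55 (number 1) and 0.19 (number 2), and resection 2 had 0.50 with sham 3. With 2 resection libraries their deviations mirror each other, so these values show no pairing. With the replicate block edgeR called 0 genes in enterocyte-like, 114 in all epithelial, 112 in immature enterocyte-like, 52 in cycling-like, 102 among goblet-like and 57 among Paneth-like cells, and 1 member, Ccl20 in goblet-like cells. Under the block 4 members lay below 0, and Ccl20 (0.56), Cxcl2 (0.59) and Nos2 (0.19) turned.

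Leaving out each library in turn gave 0 to 3 called genes in enterocyte-like, 0 to 2 in immature enterocyte-like, 0 to 13 among goblet-like and 0 to 10 among Paneth-like cells, with 0 to 1 member called in Paneth-like cells, namely Ccl20 without sham 1. Members below 0 numbered 4 to 7 and members with a lower share 5 to 8, lowest in both without sham 3. Log2 fold changes ranged from -5.92 to 1.25 for Ccl20, -4.78 to 0.62 for Cxcl2, -1.53 to 0.29 for Nos2 and -0.95 to 0.15 for Saa1, which turned without resection 2. Share differences ranged from -25.1 to 1.78 points for Ccl20, -11.8 to 1.68 for Nos2 and -0.107 to 0.0114 for Lcn2. Stem-like cells could not be fitted because sham 1 had none. Depth limits Cxcl1, Cxcl2 and Lcn2 most, with 216, 409 and 26 UMIs in enterocyte-like cells.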
